A study of Bos taurus with 6 samples.

Results

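Among the protein-coding genes of bovine 8-cell embryos, 69 of 16447 (0.42%) were above 0 FPKM (fragments mapped to a transcript, scaled to its length and to all mapped fragments of the library) in all 3 libraries of the GSKA group and exactly 0 in all 3 libraries of the control group. GSKA is an inhibitor of lactate dehydrogenase A. The GSKA libraries came from embryos cultured with 200 pmol/L GSKA, and the control libraries from embryos made by the same procedure of in vitro fertilization and culture, with an equal small share of DMSO as solvent as the methods describe it. Whether the groups shared a fertilization or culture run is not stated. Cumulus cells were removed from the embryos before culture, and SMART-Seq v4 libraries of poly(A) RNA were sequenced in pairs without a record of strand. The labels call the libraries single-cell, but each holds the RNA of a whole embryo sample, and the sources do not give the number of embryos per library. The study calls its replicates biological, without saying whether they came from separate cultures. P-values below cover the spread among these 6 libraries alone, and how much of it is technical is unknown. Zinc-finger genes named ZNF or ZSCAN, BOLA, TNP, PRM and olfactory receptor genes were left out by name, which removed 1 gene that met the levels, ZNF804B. The genes were chosen by the control and GSKA levels themselves, so these levels are described with no test.

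At the 8-cell stage the bovine embryo moves from RNA stored in the oocyte to RNA copied from its own genome, a step called embryonic genome activation. The 69 genes encode proteins of many kinds. By known role, 7 encode secreted proteins, 5 G protein-coupled receptors, 6 other receptors and membrane proteins, 6 channels and transporters, 7 metabolic enzymes, 2 GTPases of lymphocytes, 3 parts of ubiquitin ligases, 6 transcription factors and chromatin proteins, 8 intracellular signalling proteins and 7 proteins of the cytoskeleton, cilium or germ cell. The other 12 have an identifier and no symbol in the files. These roles were assigned after the values were seen. The markers named for the set were SPP1, which encodes the secreted glycoprotein osteopontin, and AGR2, which encodes a disulfide isomerase of the endoplasmic reticulum that takes part in mucin folding.

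FPKM summed to 497035 to 581839 per library, and 13285 to 14171 protein-coding genes were above 0 in each control and 13472 to 14143 in each GSKA library. Read counts cannot be had from FPKM, so depth is unknown and values carry no counting error. Spearman correlations over protein-coding genes were 0.889 to 0.909 between controls, 0.909 to 0.921 between GSKA libraries and 0.882 to 0.916 between groups. Control replicate 1 stood apart, with mitochondrial genes at 13.2% of its summed FPKM and at 5.31% to 7.26% elsewhere. All 12 markers of the oocyte and early embryo were present in every library, with summed FPKM of 14403 to 23033 in controls and 25339 to 27723 in GSKA libraries, without overlap. BTG4 made up 87.1% to 92.1% of the sum, and without it the sums overlapped, at 1595 to 2221 and 2002 to 2464. Of the 12 markers, 4 were higher in GSKA libraries and 0 lower at an unadjusted p under 0.05 in limma. Of all genes tested, 9.4% were higher and 4.03% lower at that level. After adjustment 1 marker, KHDC3L, passed (limma, log2 difference 1.46, adjusted p = 0.0348), against 0.225% of all genes that passed as higher. Its adjusted p was 0.0353 to 0.252 over 13 alternative settings and under 0.05 in 3 of them. An exact 0 also occurred in well expressed genes, since 121 protein-coding genes were listed at 0 in 1 library and at 1 FPKM or more in the other 5. In 55 of these the library at 0 was control replicate 1. For that reason a gene is said here to be listed at 0, not to be absent, and in RNA of whole embryos fewer expressing cells and less RNA per cell cannot be told apart.

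The opposite pattern was counted in the same way. With the same names left out, 56 genes (0.34%) were above 0 in all 3 controls and listed at 0 in all 3 GSKA libraries, against the 69 of the opposite kind. Genes above 0 in all 6 libraries numbered 10823 (65.8%). Detection in 2 GSKA libraries and no control held for 238 genes, and detection in 2 controls and no GSKA library for 215. Detection in 1 library alone was far more common, with 791 genes in a GSKA library and 738 in a control. A further 202 genes were above 0 in all GSKA libraries and in 1 control, and 185 were above 0 in all controls and in 1 GSKA library. Leaving out a library asks less of a gene, and the rule was then met by 119, 111 and 179 genes without control replicate 1, 2 or 3 and by 146, 126 and 173 without GSKA replicate 1, 2 or 3. The opposite rule was met by 98 to 151.

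**Figure D1:**
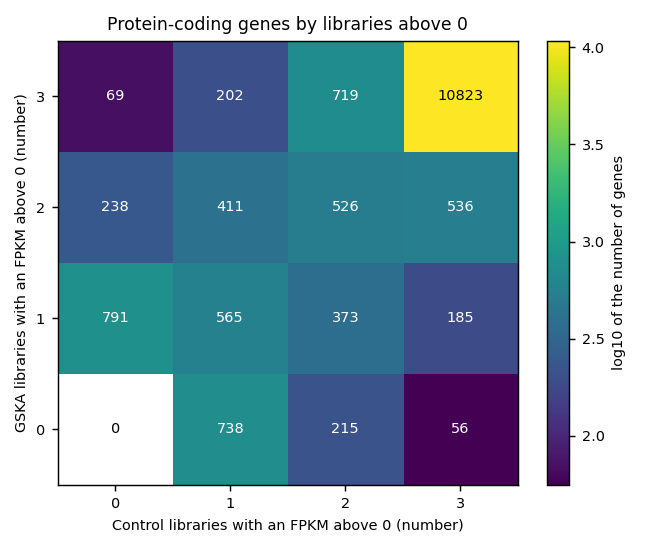
Number of protein-coding genes by how many GSKA libraries (vertical axis) and how many control libraries (horizontal axis) had an FPKM above 0, with colour on a log10 scale. The cell for 3 GSKA and 0 control libraries holds 69 genes and its opposite 56, while 10823 genes were above 0 in all 6 libraries.

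Most of the 69 genes were at low levels in the GSKA libraries. FPKM is scaled to transcript length, so levels can be set beside each other between genes. Low values did not come in steps of whole reads and their precision is unknown, so the order among low genes is uncertain. The median GSKA FPKM of a gene ran from 0.00224 to 6.91, with a median over the genes of 0.297, against 0.258 for the genes seen only in controls. A level of at least 1 FPKM in every GSKA library was reached by 5 genes, SPP1, AGR2, GIMAP4, DCAF16 and ENSBTAG00000050090, and by 2 of the 56 genes seen only in controls. These 5 are also the genes of the set that passed the filter of the test across genes used below, and they passed it through the GSKA libraries alone. A level of at least 0.1 FPKM in every GSKA library was reached by 37 genes, and 32 fell below it in at least 1. Among all protein-coding genes above 0 in a GSKA library, the median gene of the set stood at percentile 11.5, 12.4 and 12.3 in replicates 1, 2 and 3. SPP1, the highest of the set, stood at percentiles 62.0, 50.6 and 65.3. The summed FPKM of the set was 48.1, 39.6 and 52.6, or 0.00876%, 0.00731% and 0.00954% of all FPKM. SPP1, AGR2 and GIMAP4 made up 26.0%, 24.9% and 32.5% of that sum.

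The replicates of the GSKA group differed widely for single genes. The highest GSKA library exceeded the lowest by a median factor of 4.69, with a range from 1.43 for ABCC9 to 118 for ENSBTAG00000053859. The factor was below 2 in 5 genes, below 3 in 22 and at least 10 in 21. No library led the set, since replicates 1, 2 and 3 held the highest value for 24, 20 and 25 genes and the lowest for 25, 23 and 21.

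**Figure D2:**
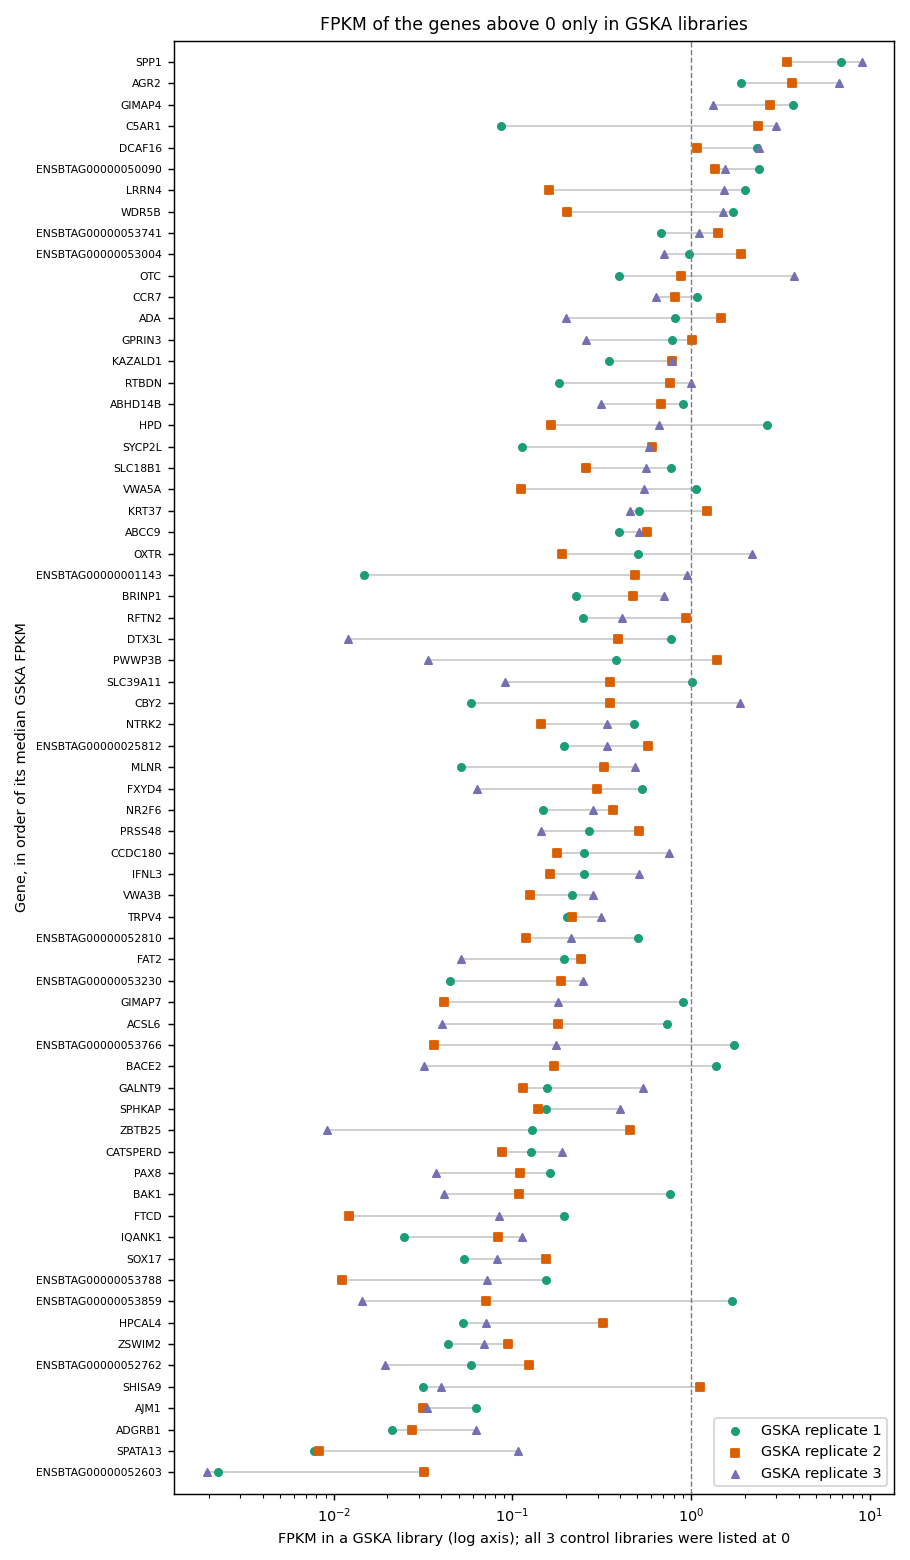
FPKM of 67 of the 69 genes in GSKA replicates 1, 2 and 3 on a log axis, ordered by the median, with a grey line from the lowest to the highest library and a dashed line at 1 FPKM. The 5 genes with all points at or right of the dashed line are SPP1, AGR2, GIMAP4, DCAF16 and ENSBTAG00000050090, and the median of the medians over all 69 is 0.297.

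The share of protein-coding genes listed at 0 in all libraries of the other group fell with the level in both directions. Of the genes above 0 in all GSKA libraries with a median below 0.1 FPKM, 13 of 219 (5.94%) were listed at 0 in all controls, and 11 of 195 (5.64%) the other way round. Between 0.1 and 0.3 FPKM the shares were 4.3% and 3.89%, between 0.3 and 1 FPKM 1.59% and 1.02%, and between 1 and 3 FPKM 0.297% and 0.32%. Between 3 and 10 FPKM, 2 of 2864 genes of the GSKA group were listed at 0 in all controls, namely SPP1 and AGR2, and 0 of 2741 the other way round. At 10 FPKM or more the counts were 0 of 4296 and 0 of 4124. Among the protein-coding genes counted here, SPP1 and AGR2 thus had the highest median level to show the pattern in either direction.

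**Figure D3:**
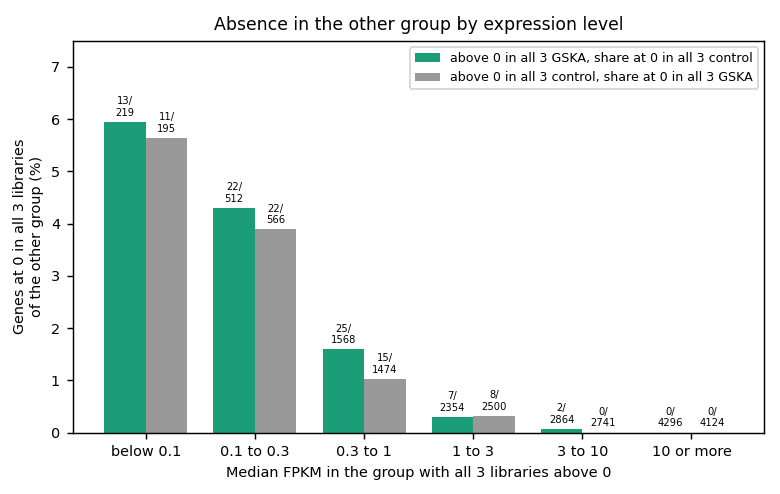
Share of protein-coding genes, in percent, that were listed at 0 in all 3 libraries of the other group, by the median FPKM in the group where all 3 libraries were above 0, with the counts over each bar. The share was 5.94% and 5.64% below 0.1 FPKM and 0.0698% and 0% between 3 and 10 FPKM, for genes above 0 in the GSKA and in the control libraries.

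In what follows, 3 values for a gene are FPKM in GSKA replicates 1, 2 and 3, and its controls were all listed at 0. Of the secreted proteins, SPP1 was at 6.91, 3.43 and 9.002. The gene lies on chromosome 6 from 36693193 to 36730559 on the minus strand, in the coordinates of the authors' files, for which the sources used here name no genome build. AGR2 was at 1.899, 3.67 and 6.73 and lies on chromosome 4 from 25290663 to 25304186 on the minus strand. Each was above 1 FPKM in every GSKA library, although the highest library exceeded the lowest by a factor of 2.63 for SPP1 and 3.54 for AGR2. KAZALD1, a secreted protein with a protease-inhibitor-like domain, was at 0.347, 0.781 and 0.781. The retinal flavin-binding protein RTBDN was at 0.183, 0.767 and 0.994, and BRINP1, which is known from neurons, was at 0.228, 0.472 and 0.702. In these 3 genes replicate 1 was the lowest. PRSS48, a serine protease, was at 0.269, 0.512 and 0.145. IFNL3, a type III interferon that acts in antiviral defence of epithelia, was at 0.250, 0.163 and 0.512.

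Epithelia of the oviduct and endometrium are known sources of osteopontin and other secreted proteins. The embryos here came from oocytes of ovarian follicles that were matured, fertilized and cultured in vitro, outside the oviduct and uterus. With PAX8 left out because it belongs to the set, 6 of the 10 markers listed for these epithelia were in the files, with summed FPKM of 30.9 to 52.4 in controls and 22.0 to 42.3 in GSKA libraries. Nearly all of that sum was EPCAM, which embryos also express, while TFF3 was listed at 0 in all controls and LTF in all GSKA libraries. MUC1, MUC16 and PIGR were not in the files used here, which list genes above 0 in at least 1 library. Markers of cumulus and granulosa cells (10 of 12 in the files) summed to 38.9 to 54.6 in controls and 71.2 to 81.6 in GSKA libraries, without overlap. Of the 4 tested, TNFAIP6, STAR and VCAN were higher at an unadjusted p under 0.05 in limma, against 9.4% of all genes tested. Their log2 differences were 1.09, 0.72 and 0.91, and 0 passed limma after adjustment (adjusted p = 0.208, 0.295 and 0.361). STAR was the largest part of the cumulus and granulosa sum, at 20.1 to 40.3 FPKM in controls and 43.5 to 50.6 in GSKA libraries. How many of all genes separate between the groups without overlap was not counted. INHA and INHBA were listed at 0 in all GSKA libraries, and FSHR and FOXL2 were not in the files used here. Fibroblast markers (8 of 8) summed to 3.85 to 5.88 and 6.82 to 9.66, also without overlap, with LUM listed at 0 in all GSKA libraries and POSTN in all controls. That gap rested on DCN, which encodes the matrix proteoglycan decorin and stood at 0, 0 and 1.18 FPKM in controls and 5.49, 4.23 and 6.26 in GSKA libraries. DCN passed limma (log2 difference 2.27, adjusted p = 0.0452), although over 13 alternative settings its adjusted p was 0.0425 to 0.291 and passed in 1, without control replicate 3. Without DCN the other 7 markers summed to 3.85 to 5.88 in controls and 2.59 to 3.40 in GSKA libraries, the reverse order. The part of these cell types in the levels of SPP1 and AGR2 was not tested.

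The G protein-coupled receptors bind chemoattractants and hormones. C5AR1, the receptor of the complement fragment C5a, was at 0.0860, 2.36 and 2.99, so that replicate 1 lay far below the others. CCR7, the receptor that guides lymphocytes and dendritic cells along CCL19 and CCL21, was at 1.08, 0.817 and 0.637, with a factor of 1.70 between the highest and the lowest library. OXTR, the receptor of oxytocin, was at 0.506, 0.188 and 2.19, with replicate 3 far above the others. The motilin receptor MLNR was at 0.0516, 0.325 and 0.486. ADGRB1, an adhesion receptor with roles in uptake of dying cells, did not exceed 0.0629 in any library. NTRK2, the receptor kinase that binds BDNF, was at 0.481, 0.145 and 0.339. Of the other membrane proteins, the leucine-rich repeat protein LRRN4 was at 1.99, 0.161 and 1.53, low in replicate 2. The aspartic protease BACE2 was at 1.39, 0.170 and 0.0320, and SHISA9, an auxiliary subunit of glutamate receptors, at 0.0315, 1.12 and 0.0397. In both, 1 library stood far above the others. The large cadherin FAT2 stayed between 0.0515 and 0.243.

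GTPases of the GIMAP family are known for the survival of lymphocytes. GIMAP4 was at 3.71, 2.75 and 1.33 and GIMAP7 (ENSBTAG00000030940) at 0.902, 0.0413 and 0.180. The files hold the symbol GIMAP7 for 3 identifiers of this cluster on chromosome 4. Of the others, ENSBTAG00000001198 was at 2.90 FPKM in control replicate 3 and 1.62 in GSKA replicate 3, and listed at 0 elsewhere. Near-identical copies can share reads, so the level of GIMAP7 is uncertain. Leukocyte markers (12 of 15 in the files) summed to 5.75 to 6.95 FPKM in controls and 8.41 to 17.1 in GSKA libraries, without overlap. The pan-leukocyte marker PTPRC was listed at 0 in all controls and in GSKA replicates 1 and 3, and stood at 0.761 in GSKA replicate 2. CD3D, CD79B, CORO1A and TYROBP were also listed at 0 in all controls. In the GSKA libraries CD3D was at 0, 0.391 and 0 and CD79B at 0, 0 and 0.190. CORO1A was at 0, 0.319 and 0 there, and TYROBP at 0.00708, 0 and 0.725. The other markers in the files were above 0 in at least 1 control. CSF1R stood at 1.83 to 3.61 FPKM in controls and 1.87 to 4.02 in GSKA libraries. CD52 stood at 1.42 to 1.58 and 1.33 to 8.90, and CD14 at 0 to 1.87 and 0 to 0.850. LCP1 stood at 0.293 to 0.911 FPKM in controls and 0.782 to 2.06 in GSKA libraries, and FCER1G at 0 to 0.274 and 0 to 2.98. CD3E stood at 0 to 1.29 and 1.11 to 1.86, and MS4A1 at 0 to 0.135 and 0 to 0.515. The means of LCP1, FCER1G, CD3E and MS4A1 were higher in GSKA libraries. ITGAM, CD79A and AIF1 were not in the files used here. None of the 3 leukocyte markers tested passed limma at an adjusted p of 0.05, and 0 of them had an unadjusted p under 0.05. Markers of red blood cells (3 of 7 in the files) summed to 5.95 to 14.2 FPKM in controls and 3.99 to 6.40 in GSKA libraries, with overlap. HBA, the 1 tested, had a log2 difference of -0.92 (limma, adjusted p = 0.410). The part of leukocyte RNA in the levels of C5AR1, CCR7 and the GIMAP genes was not tested.

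Among channels and transporters, ABCC9 and TRPV4 varied least. ABCC9, the sulfonylurea receptor subunit of potassium channels that sense ATP, was at 0.396, 0.565 and 0.510, the narrowest spread of the set. TRPV4, a calcium channel opened by osmotic stretch and warmth, was at 0.202, 0.215 and 0.312, with a factor of 1.54. The vesicular polyamine transporter SLC18B1 was at 0.771, 0.257 and 0.561. SLC39A11, of the zinc importer family, was at 1.01, 0.352 and 0.0911, and FXYD4, a regulator of the sodium pump, at 0.534, 0.297 and 0.0635. Both were highest in replicate 1 and lowest in replicate 3. CATSPERD, an accessory subunit of the sperm calcium channel, was at 0.126, 0.0880 and 0.189.

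The metabolic enzymes were mostly those of liver and nitrogen metabolism. OTC, which joins ornithine and carbamoyl phosphate in the urea cycle, was at 0.392, 0.880 and 3.77. HPD, an enzyme of tyrosine breakdown, was at 2.65, 0.164 and 0.659, and FTCD, of histidine breakdown, at 0.194, 0.0122 and 0.0844. OTC was thus highest in replicate 3, and the genes of amino acid breakdown were highest in replicate 1. ADA, which converts adenosine to inosine, was at 0.814, 1.47 and 0.199. The hydrolase ABHD14B was at 0.896, 0.675 and 0.312, with a factor of 2.87, the narrowest of the 7. ACSL6, which activates long-chain fatty acids, was at 0.735, 0.179 and 0.0402, and GALNT9, an enzyme of mucin-type glycosylation, at 0.157, 0.115 and 0.541.

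Of the ubiquitin ligase components, DCAF16, a substrate receptor of CUL4 ligases, was at 2.33, 1.08 and 2.40. It overlaps NCAPG, which lies on the other strand and stood at 19.2 to 36.3 FPKM in the 6 libraries. Without a record of strand, reads from the shared stretch cannot be assigned to either gene, so the level of DCAF16 is uncertain. DTX3L, a ligase that works with PARP9 in the response to DNA damage and interferon, was at 0.772, 0.388 and 0.0120, and ZSWIM2 stayed between 0.0434 and 0.0942.

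WDR5B, a close relative of the histone methyltransferase subunit WDR5, was at 1.71, 0.202 and 1.52, the highest of the transcription and chromatin genes. PWWP3B was at 0.380, 1.39 and 0.0336, a factor of 41.4. The nuclear receptor NR2F6 was at 0.149, 0.363 and 0.283, and ZBTB25 at 0.128, 0.456 and 0.00920. SOX17, a marker of endoderm, was at 0.0536, 0.154 and 0.0820, and PAX8, a factor of thyroid, kidney and reproductive tract, at 0.162, 0.110 and 0.0376. Neither lineage factor exceeded 0.162 FPKM in any library. Without SOX17, the summed FPKM of blastocyst lineage markers (8 of 12 in the files) overlapped between controls (23.6 to 34.5) and GSKA libraries (18.5 to 31.4). Of the 7 tested, KRT18 was lower at an unadjusted p under 0.05 in limma, against 4.03% of all genes tested. It did not pass after adjustment (limma, log2 difference -1.02, adjusted p = 0.286). KRT18 passed the filter of the test through the controls alone, so its direction is no result of the test.

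Intracellular signalling proteins were low, with a median of medians of 0.131. GPRIN3, a partner of G protein alpha subunits, was at 0.786, 1.01 and 0.257, and the lipid raft protein RFTN2 at 0.249, 0.930 and 0.410. SPHKAP, an anchor of protein kinase A, was at 0.154, 0.139 and 0.400. BAK1, which opens the outer mitochondrial membrane in apoptosis, was at 0.757, 0.109 and 0.0416, and the calcium sensor HPCAL4 at 0.0527, 0.322 and 0.0709. In BAK1 and HPCAL4, 1 library stood far above the others. AJM1 and SPATA13, an exchange factor of small GTPases, did not exceed 0.107.

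Among proteins of the cytoskeleton, cilium or germ cell, KRT37, a hair keratin, was at 0.513, 1.23 and 0.456. SYCP2L, which is known from the chromosomes of mouse oocytes, was at 0.114, 0.607 and 0.585, and VWA5A at 1.07, 0.112 and 0.547. CBY2, which is known from spermatids, was at 0.0583, 0.350 and 1.88. CCDC180, VWA3B and IQANK1 stayed at or below 0.748. Sperm markers, of which 6 of 10 were in the files, summed to 6.06 to 9.10 FPKM in controls and 5.17 to 7.11 in GSKA libraries, with overlap. Of the 2 tested, GSG1 was lower at an unadjusted p under 0.05 in limma, against 4.03% of all genes tested. It did not pass after adjustment (limma, log2 difference -1.22, adjusted p = 0.332). SMCP, at 1.63, 1.43 and 0 in GSKA libraries, and ODF1, at 0.698, 0.214 and 0, were listed at 0 in all controls.

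Of the 12 genes with no symbol, 8 carried a functional term in the files. They were singled out after their values were seen. ENSBTAG00000050090, annotated with cytokine activity and antiviral defence, was at 2.40, 1.37 and 1.54. It lies on chromosome 18, 21.9 kb from IFNL3, and was the higher of the pair in every GSKA library. Whether the pair shares reads was not tested, so this order is uncertain. ENSBTAG00000053741, annotated as an inhibitor of serine proteases, was at 0.679, 1.41 and 1.11, and ENSBTAG00000053004, annotated with protein ubiquitination, at 0.979, 1.89 and 0.707. ENSBTAG00000053859, annotated as a nucleosome component, spans 204 bases and was at 1.70, 0.0710 and 0.0144. The other 8 ran from 0.00196 to 1.74 FPKM and include genes annotated as a monooxygenase, a GTPase and an NAD nucleosidase.

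The threshold of the rule runs through very small values. The lowest levels inside it were those of ENSBTAG00000052603, at 0.00196 FPKM in its lowest GSKA library, SPATA13 at 0.00779 and ZBTB25 at 0.00920. Just outside it were TSSK1B, with 0.00456 in control replicate 1, CASK, with 0.00541 in control replicate 3, and HCN3, with 0.0102 in control replicate 1. Of the genes with 1 control above 0 and all GSKA libraries at 1 FPKM or more, BEX2 was at 0.0359 in that control and at 2.13, 2.17 and 1.48 in the GSKA libraries. On the other side, PATE2 stood at 2.50, 0 and 3.88, HINT2 at 0, 2.29 and 4.35 and HSD3B1 at 0, 3.40 and 2.28, with all controls listed at 0.

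A few of the 69 genes were neighbours. Gaps below 100 kb separated IFNL3 from ENSBTAG00000050090 and GIMAP4 from GIMAP7 (37.7 kb). DTX3L and WDR5B lay 122 kb apart on chromosome 1, and SPP1 and DCAF16 lay 585 kb apart on chromosome 6. In all, 12 of the 69 had another gene of the set within 1 Mb. Another annotated gene overlapped 7 of them, DCAF16, DTX3L, PRSS48, IQANK1 and 3 with no symbol. In 6 of the 7 the other gene lies on the opposite strand, as for DCAF16, and ENSBTAG00000025812 shares its strand with the gene it overlaps. FAM83H, which overlaps IQANK1, was listed at 0 in all GSKA libraries. The median span was 13.5 kb, against 9.30 kb for genes seen only in controls and 22.3 kb for genes above 0 in all 6 libraries. The annotation gave 1 transcript for 84.1% of the set, 85.7% of the genes seen only in controls and 63.4% of those above 0 in all 6. OTC and PWWP3B lie on the X chromosome, 2.9% of the set against 3.79% of all protein-coding genes.

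The terms in the files described some of the same proteins. Of the 46 genes with a GO annotation, ABCC9, IFNL3 and ENSBTAG00000050090 (6.52%) carried defence response to virus, against 0.367% of all annotated genes. Of the 32 with a KEGG annotation, CCR7, IFNL3 and ENSBTAG00000050090 (9.38%) belonged to cytokine-cytokine receptor interaction, against 3.07% of all, and C5AR1, MLNR and OXTR (9.38%) to neuroactive ligand-receptor interaction, against 3.4%. Metabolic pathways took 21.9% against 21.7%. These shares rest on 3 to 7 genes each and were not tested.

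Genes that work with the 69 were not chosen by the rule and were tested. Their lists were written with earlier results of these data known, DTX3 and ERP44 among them, so a gene that passes is no independent support. Lists of ligands, receptors, enzymes and relatives gave 133 such genes in the files, of which 91 reached 1 FPKM or more in 3 or more libraries. They were compared by limma on log2(FPKM + 1) with Benjamini-Hochberg adjustment over all 10654 genes tested. Over all genes, 38 (0.357%) passed at an adjusted p under 0.05, of which 24 (0.225%) were higher and 14 (0.131%) lower in GSKA libraries, a split that became 7 and 14 after median scaling and 14 and 15 after quantile normalization. Of the 91, 0 were higher and 1 was lower. At an unadjusted p under 0.05, 10 (11.0%) were higher and 5 (5.49%) lower, against 9.4% and 4.03% of all genes. The 5 include C5AR2 and C3, which passed the filter through the controls alone, so their direction is no result of the test. The median log2 fold change of the 91 was 0.02, against 0.09 over all genes.

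**Figure D4:**
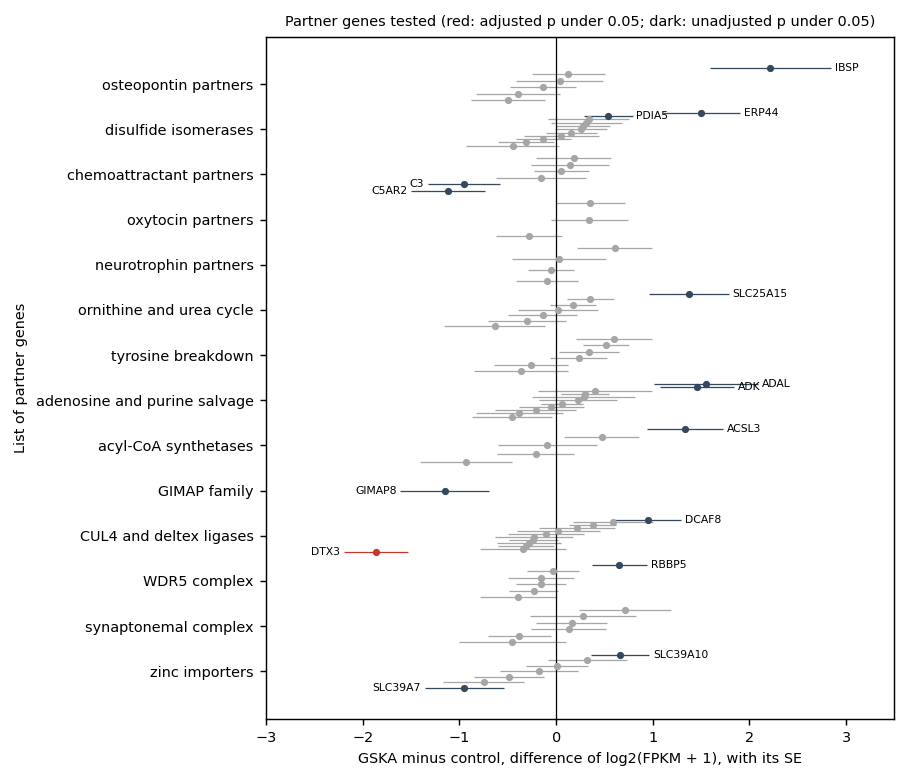
GSKA minus control difference of log2(FPKM + 1) with its standard error for the 91 tested genes that work with or resemble genes of the set, by list; red marks an adjusted p under 0.05 and dark blue an unadjusted p under 0.05. DTX3, at -1.86, is the 1 gene in red, and IBSP, at 2.22, lies farthest to the right.

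The gene that passed was DTX3, a ubiquitin ligase related to DTX3L. DTX3 stood at 15.0, 19.3 and 16.2 FPKM in control replicates 1, 2 and 3 and at 4.21, 5.08 and 2.65 in the GSKA libraries, so the groups did not overlap. It fell by 1.86 on the log2 scale (standard error 0.335, adjusted p = 0.0350 from limma). The adjusted p of DTX3 lay between 0.0348 and 0.234 over 13 alternative settings and was under 0.05 in 2 of them, quantile normalization and median scaling. Without 1 library it ran from 0.0502, without control replicate 1, to 0.158, without GSKA replicate 1. The other 11 tested genes of CUL4 and deltex ligases did not pass. DCAF8 had the next smallest p and a log2 difference of 0.95 (limma, adjusted p = 0.265). PARP9, the partner of DTX3L, was not tested, at 0.305 to 2.52 FPKM in controls and 0.122 to 0.629 in GSKA libraries.

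Osteopontin binds integrins and CD44, and its gene lies beside those of other acidic bone proteins. IBSP, bone sialoprotein, lies 149 kb from SPP1 and stood at 0.734, 3.42 and 13.5 FPKM in controls and 36.9, 20.8 and 12.5 in GSKA libraries. GSKA replicate 3 lay just below control replicate 3, so the groups overlapped, and the log2 fold change of 2.22 did not pass (standard error 0.625, adjusted p = 0.145 from limma). Without control replicate 3 the log2 fold change of IBSP was 3.01 and passed narrowly (adjusted p = 0.049955 from limma). CD44 was at -0.50 (adjusted p = 0.616 from limma) on the log2 scale, and the 4 integrin genes tested did not pass either. Other neighbours of SPP1 were unlike it. PKD2, 20.7 kb away, did not exceed 0.362 FPKM in any library, and it was above 0 in 2 controls. The nearest neighbour of AGR2, TSPAN13, stood at 12.4 to 40.5 FPKM in controls and 27.7 to 31.0 in GSKA libraries. Disulfide isomerases related to AGR2 numbered 11 with LYPD3, a binding partner, and none passed. ERP44, which retains unfinished secreted proteins, had the smallest p and a log2 difference of 1.502 (limma, adjusted p = 0.130), followed by PDIA5 at 0.54 (adjusted p = 0.369).

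Related genes of the receptors, the potassium channel and the GIMAP family went either way. C5AR2, the other receptor of C5a, lies 9.81 kb from C5AR1 and stood at 1.62, 1.36 and 1.39 FPKM in controls and at 0.4501, 0 and 0 in GSKA libraries. The groups did not overlap, yet the log2 fold change of -1.12 did not pass (standard error 0.380, adjusted p = 0.229 from limma). C5AR2 passed the filter of the test through the controls alone, so its direction is no result of the test. C3, a source of another complement fragment, was at 1.44, 1.33 and 1.946 in controls and 0.244, 0.404 and 0.314 in GSKA libraries, a log2 difference of -0.95 (limma, adjusted p = 0.283). C3 also passed the filter through the controls alone. C5 was at 0.15 (adjusted p = 0.909 from limma) and CCL19, the ligand of CCR7, at 0.18 (adjusted p = 0.879). OXT, which encodes oxytocin, was at 0.965, 1.14 and 0.524 in controls and listed at 0 in all GSKA libraries. AVPR1B, a related receptor, was at 0, 0 and 1.03 in controls and 0.835, 0.866 and 0.684 in GSKA libraries. OXT was too low for the test, as was ABCC8, the paralog of ABCC9, which was at 0.180, 0.547 and 0.170 in controls and listed at 0 in all GSKA libraries. OXT and ABCC8 are thus among the 56 genes (0.34%) seen only in controls. KCNJ8, the pore subunit that pairs with ABCC9, was at 0.386, 0.456 and 1.08 in controls and at 0, 0 and 0.730 in GSKA libraries, with overlap. KCNJ11, the third gene of the potassium channel list, and C3AR1, of the complement list, were listed at 0 in every library but GSKA replicate 1, where they stood at 0.369 and 0.123. GIMAP8 was at 2.38, 1.91 and 2.19 in controls and at 0, 1.86 and 0 in GSKA libraries, a log2 difference of -1.15 (limma, adjusted p = 0.296). Whether these pairs are linked was not tested.

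**Figure D5:**
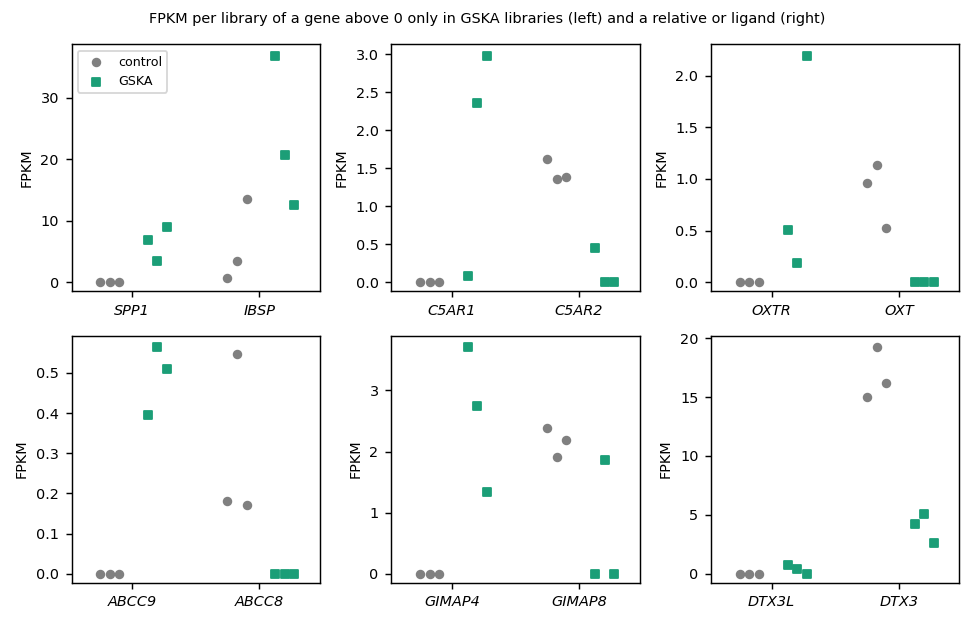
FPKM per library (grey circles, control; green squares, GSKA) of 6 genes listed at 0 in all controls, on the left of each panel, and of a relative or ligand, on the right; vertical axes differ between panels. The lowest values of IBSP were in controls, while C5AR2, OXT, ABCC8, GIMAP8 and DTX3 had their highest values there, such as 15.0 to 19.3 FPKM for DTX3. Partner genes with all GSKA values above all control values, SLC25A15 and ADAL among them, are not shown.

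The remaining lists held no gene that passed. In the ornithine and urea cycle list, with 7 genes tested, SLC25A15, the mitochondrial ornithine carrier that supplies OTC, had the smallest p and a log2 difference of 1.37 (limma, adjusted p = 0.171), and its values of 2.95 to 11.7 FPKM in controls lay below 18.4 to 22.8 in GSKA libraries. CPS1, which makes the other substrate of OTC, was too low for the test, at 0.0869 to 1.46 and 0 to 0.962. In adenosine and purine salvage, with 11 tested, ADK stood at 1.10 to 3.17 FPKM in controls and 6.48 to 8.49 in GSKA libraries (log2 difference 1.46, limma, adjusted p = 0.126), and ADAL, a relative of ADA, was at 1.55 (limma, adjusted p = 0.233). In tyrosine breakdown, with 6 tested, GOT2 was at 0.52 (adjusted p = 0.376 from limma), and HGD, which follows HPD, was at 3.40 FPKM in control replicate 1 and listed at 0 in the other 5 libraries. Among acyl-CoA synthetases, ACSL3 was at 1.33 (adjusted p = 0.168 from limma), with no overlap of 1.56 to 4.59 FPKM in controls and 6.18 to 10.4 in GSKA libraries. Of the WDR5 complex, RBBP5 was at 0.65 (adjusted p = 0.335 from limma) and WDR5 itself at -0.03 (adjusted p = 0.976), at 26.8 to 36.6 FPKM in controls and 25.02 to 36.6 in GSKA libraries. BDNF, the ligand of NTRK2, was at 5.79 to 6.92 and 6.81 to 18.9 FPKM (log2 fold change 0.61, adjusted p = 0.536 from limma). Zinc importers gave SLC39A7 at -0.95 and SLC39A10 at 0.66 (adjusted p = 0.335 and 0.358 from limma). For the synaptonemal complex the smallest p was that of TEX12, at 0.72 (adjusted p = 0.555 from limma), and for oxytocin signalling that of GNAQ, at 0.35 (adjusted p = 0.712).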

How the data were processed

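RNA of bovine 8-cell embryos was measured in 3 control and 3 GSKA libraries. The authors deposited FPKM values per gene and library, with cutadapt 1.9, HISAT2 2.0.4 and StringTie 1.3.4d named in the submitters' processing notes. No genome build is named in the sources used here. The low FPKM values did not come in steps of whole reads, so no test on counts was run. The authors also deposited a table of their own comparison by edgeR, with fold changes and p-values, which was not used.

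Genes were taken by the type protein_coding in the files, an FPKM above 0 in all GSKA libraries and 0 in all controls, after leaving out names that start with ZNF, ZSCAN, BOLA-, TNP, PRM, or OR and a digit. The genes and all lists were chosen with earlier results of these data known, SPP1, AGR2, DTX3 and ERP44 among them, so none of these is independent support. Names came from the files, and 54 of 57 symbols were also in the RefSeq table. Sequences are not shown, and 2 of the genes are counted but not reported here by name.

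Related genes were compared by limma 3.58.1 (R 4.3.3), fitted with an intensity trend to log2(FPKM + 1) of the 10654 genes that reached 1 FPKM in 3 or more libraries, with Benjamini-Hochberg adjustment and a threshold of 0.05. Fold changes on this scale understate changes of low genes. The script was tested on simulated data. The text names SPP1 and AGR2, the 25 symbols with the highest lowest GSKA FPKM, up to 8 per role, genes at the edges of the rule, and per list the genes called and up to 3 with the smallest p. Neighbours, low partner genes, marker genes and genes without a symbol that are named beside these were chosen after their values were seen. Alternatives covered detection limits, names left out, pseudocount, filter, scaling, replicate block, variance trend and each library left out.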

Additional observations from a re-analysis of the deposited data

Results flagged for a closer look

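Outside the protein-coding genes, 15 of 2015 genes of other types in the files were above 0 FPKM in all GSKA libraries and listed at 0 in all controls. The opposite pattern held for 16. The counts by the rule above left out these types, while the limma fit took genes of every type that passed its filter. The 15 comprised 9 lncRNA genes, 2 snRNA genes and 1 each of a miRNA, a 7SK-like RNA, a processed pseudogene and a pseudogene. The lncRNA ENSBTAG00000053028 was at 1.795, 3.97 and 3.65 FPKM in GSKA replicates 1, 2 and 3, and the locus annotated as MIR25 at 2.15, 0.695 and 1.70. FPKM of such short loci in a poly(A) library were not tested against another measure.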

How the results depend on the processing

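The count of 69 genes depended on what counted as detection. It was 37 with at least 0.1 FPKM in every GSKA library, 5 with at least 1 FPKM, and 157 with controls allowed below 0.1 FPKM. The opposite set went from 56 to 35, 2 and 179, so it was the larger of the pair under the last setting. With at least 0.1 FPKM in one group and below 0.1 in the other the counts were 56 and 58, and with no names left out the count was 70. Without 1 library it ran from 111 to 179.

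Of all genes, 38 passed limma. The count was 15 with a pseudocount of 0.1, 16 with a filter at 0.1 FPKM, 21 after median scaling, 29 after quantile normalization, 7 without the intensity trend and 0 with no filter, where 1664 genes had an unadjusted p under 0.05. Without 1 library it ran from 4 to 42, with 4, 10 and 6 without GSKA replicates 3, 2 and 1 and 24 without control replicate 2. The 1 related gene that passed became 0 with the smaller pseudocount, with the lower filter, with no filter and without the trend, where 15, 18, 18 and 13 of them had an unadjusted p under 0.05, and 0 to 1 without 1 library, where the 1 was IBSP without control replicate 3. The cause was not tested.

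With the replicate number as a block 19 of all genes and 0 related genes passed, and 12 related genes had an unadjusted p under 0.05. Deviations of same-numbered libraries from their group means correlated at -0.08, 0.14 and -0.12, and only those numbered 2 correlated best with their own number. All pairs of a control and a GSKA library lay between -0.12 and 0.18. With 3 libraries per group this cannot tell whether libraries of the same number shared a run. Since depth is unknown, so is the precision of low values.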
